A study of Mus musculus with 4 samples.

Results

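The subject is the expression profile of untreated wild-type microglial cells, read from the single array of that group among the 4 arrays of the series. Every gene with its own symbol in the platform annotation was ranked by its level on this array, 19938 genes in all. The choice used only the sample's label and each gene's annotation. Each group of the series has 1 array, so a level below has no replicate error and no difference between arrays was tested.

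RNA was hybridised to Affymetrix Mouse Gene 1.0 ST arrays, which read each transcript with many short probes and report 1 value per probe set. The untreated wild-type cells are labelled strain C57Bl, genotype wildtype and agent none (WT control below). The other arrays hold wild-type C57Bl cells given lipopolysaccharide (LPS), a bacterial cell wall component, for 3 h (WT LPS), and cells labelled Bid-/- without and with the same treatment (Bid-/- control and Bid-/- LPS), with no strain given. The cell type is labelled microglial cells and the title abbreviates it as pMG, with no spelling out. The sources used here do not state the age and sex of the animals, how many animals an array stands for, or how the cells were grown.

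Microglia are the macrophages that live in brain tissue. They depend on signalling through the receptor Csf1r, they clear debris through phagocytic receptors and lysosomes, and they sense microbes and injury through pattern recognition, purine and complement receptors. In the healthy brain they carry a set of genes usually called the homeostatic signature. Other macrophages lack many of these genes or hold them at low levels. The set is known to fall when the cells are taken out of the brain.

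Levels are log2 expression as deposited, so 1 unit stands for a 2-fold difference of signal in the same probe set. Probe sets differ in how strongly they bind, so a place in the ranking is a place by signal and not by number of transcripts, and no fold is given between genes. To mark where signal becomes background, 2 sets of genes were read on the same array. They were gathered by symbol and taken as not used by microglia, which was not checked gene by gene. The 1244 olfactory, vomeronasal, trace amine and taste receptor genes had a median of 2.57, and 95% of them lay at or below 3.85, called the floor. The 156 keratin, crystallin and defensin genes had a median of 3.39 and 95% of them lay at or below 5.35, called the upper line. Of all 19938 genes, 12331 (61.8%) were above the floor, 7707 (38.7%) above the upper line and 986 (4.95%) above 8.84, the line of the top 5%. The 4624 genes between floor and upper line cannot be told from background here. Another set, 31 genes of other tissues such as the albumin gene Alb and the prolactin gene Prl, gave 11 members above the floor and none (0) above the upper line, with the muscle creatine kinase gene Ckm highest at 4.98. The median of all genes was 4.45 and the highest level 12.59.

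**Figure D1:**
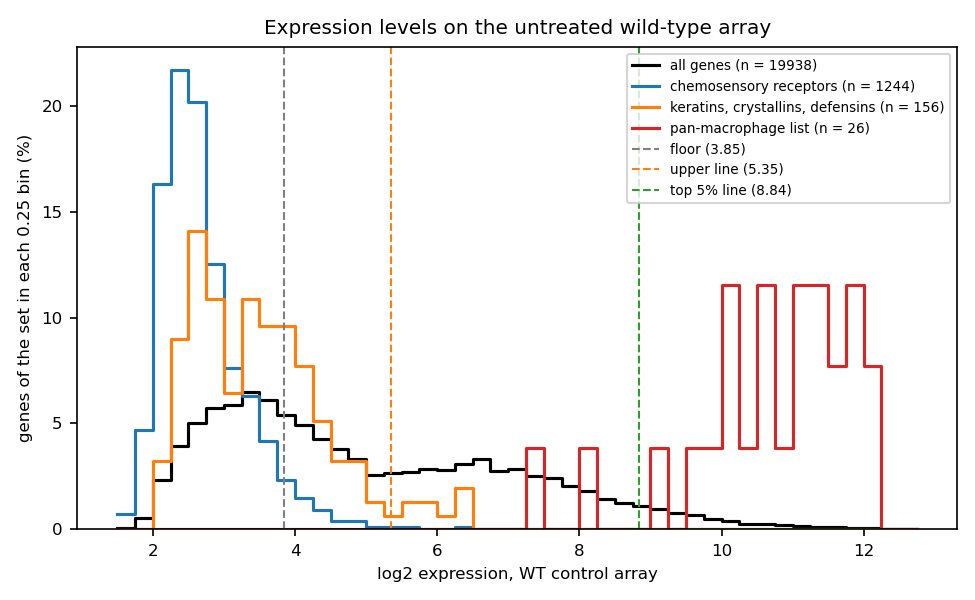
Distribution of log2 expression on the WT control array (horizontal axis) as the percentage of each set's genes in bins of 0.25 (vertical axis), for all 19938 genes, the 1244 chemosensory receptor genes, the 156 keratin, crystallin and defensin genes and the 26 pan-macrophage genes. The dashed lines are the floor (3.85), the upper line (5.35) and the top 5% line (8.84); pan-macrophage genes lie between 7.28 and 12.19, right of both reference sets.

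The 4 genes that mark these cells were all well above background. Cd68, a lysosomal membrane protein of phagocytes, had a level of 11.05 in the WT control cells, which is rank 85, against 11.04, 11.07 and 10.74 on the WT LPS, Bid-/- control and Bid-/- LPS arrays. Csf1r, the receptor for the growth factors CSF1 and IL-34, read 10.61, against 10.10, 10.78 and 10.46 on the same other arrays in that order. Cx3cr1, the fractalkine receptor, read 9.73, against 8.61, 9.76 and 8.35, so both untreated arrays were above both LPS arrays. Trem2, a lipid-sensing receptor that signals through the adaptor Tyrobp, read 8.18, against 8.29, 8.34 and 7.43, and was the only 1 of the 4 below the top 5% line, at percentile 91.5.

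All 26 genes shared by macrophages of many tissues were above the upper line, and 24 of them (92.3%) were in the top 5% of genes, where 4.95% of all genes lie. Lysozyme Lyz2 read 12.19, the protease gene Ctss 12.09, the adhesion receptor gene Adgre1 11.98 and the Fc receptor signalling chain Fcer1g 11.82. The 3 chains of C1q, the starter of the classical complement cascade, read 11.64 (C1qa), 11.15 (C1qb) and 11.72 (C1qc). The integrin genes Itgam and Itgb2 read 10.54 and 10.14, the leukocyte phosphatase gene Ptprc 9.86, the calcium-binding marker Aif1 9.73 and the Trem2 adaptor Tyrobp 10.07. The members below the top 5% line were Trem2 and the Fc receptor gene Fcgr3 (7.28). The list median of 10.92 on the WT control array stood beside 11.08, 10.90 and 10.74 on the WT LPS, Bid-/- control and Bid-/- LPS arrays.

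The homeostatic signature was uneven. Its list is not limited to genes that other macrophages lack, since Csf1r is also in the pan-macrophage list. Of 22 listed genes 20 had a value; 15 were above the upper line (75.0%, against 38.7% of all genes) and 4 in the top 5%, with a median of 6.38. The 4 in the top 5% were the protease inhibitor gene Cst3 (11.81), the Fc receptor-like gene Fcrls (11.53), Csf1r and Cx3cr1. The uptake receptor gene Mertk (8.66), the secreted olfactomedin gene Olfml3 (8.57), the selectin ligand gene Selplg (8.45) and the TGF-beta receptor gene Tgfbr1 (7.42) followed. Tmem119 and Sall1, often used to tell microglia from other macrophages, lay lower. Tmem119, a microglial membrane protein, had a level of 5.83 in the WT control cells, against 5.31, 5.45 and 5.12 on the WT LPS, Bid-/- control and Bid-/- LPS arrays. Sall1, a transcription factor that holds microglial identity in the brain, read 5.46, against 5.63, 5.53 and 5.79. Both were just above the upper line on the WT control array, and Tmem119 was highest there.

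The ADP receptor gene P2ry12, which guides microglial processes to injury, read 4.33 on the WT control array, between the floor and the upper line, against 3.91, 4.38 and 3.90 on the others in the same order. Its relative P2ry13 read 6.68, against 5.91, 7.33 and 6.28. The lectin gene Siglech (3.47), the fructose transporter gene Slc2a5 (3.51) and the lysophosphatidylserine receptor gene Gpr34 (2.71) were not above the floor, and Gpr34 stayed between 2.58 and 2.83 on all 4 arrays. Nearest the floor from above was P2ry12, followed by the leukotriene synthase gene Ltc4s (4.49). Set against the cell type label, the macrophage genes were high. Of the 20 homeostatic genes with a value 15 passed the upper line, among them Fcrls (11.53), Olfml3 (8.57) and P2ry13. Tmem119 and Sall1 lay just above it, within the range of the genes that set that line (highest Crybg3 at 6.43). P2ry12, Siglech and Gpr34 did not pass it.

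**Figure D2:**
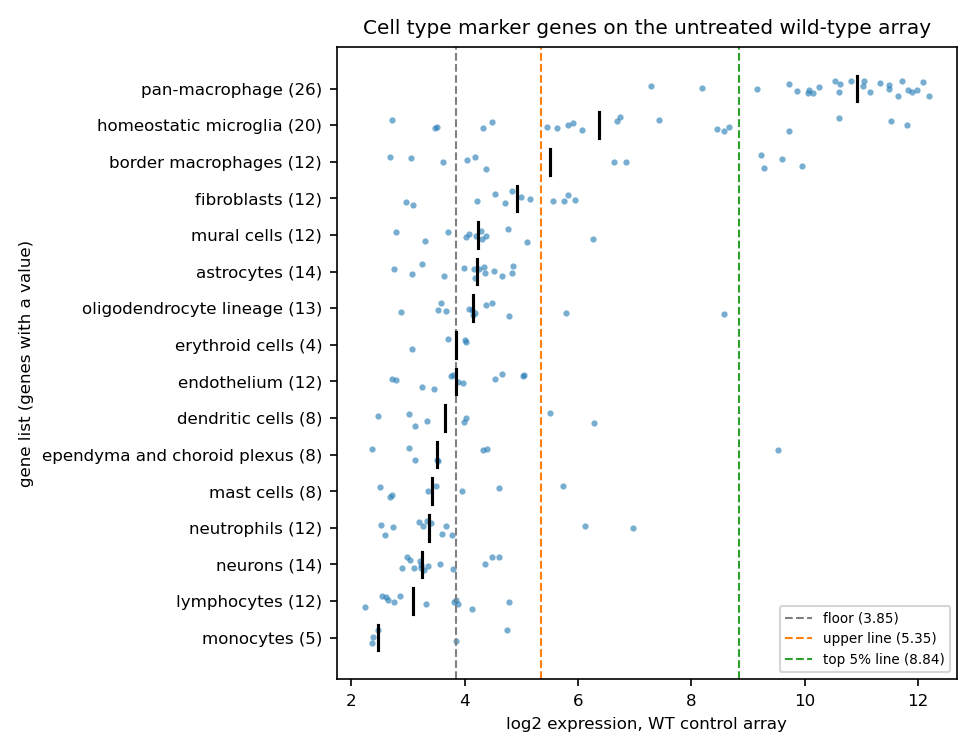
Log2 expression on the WT control array (horizontal axis) of each gene in 16 cell type lists (vertical axis, with the number of genes that had a value), 1 point per gene, the bar being the list median and the dashed lines the floor, upper line and top 5% line. Pan-macrophage genes have the highest list median (10.92), homeostatic microglia genes spread from 2.71 to 11.81, and neuron genes stay at or below 4.60.

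Most genes of other cell types did not pass the upper line. In 13 lists for cells other than macrophages, 134 genes had a value. Of these, 66 (49.3%, against 61.8% of all genes) were above the floor. Above the upper line were 13 (9.70%, against 38.7%), and 1 (0.746%) was in the top 5%. A low level in a mixed RNA sample can mean few cells of a type or little RNA per cell, and these cannot be told apart here. None of 14 neuron genes (0), 14 astrocyte genes, 12 lymphocyte genes or 12 endothelial genes was above the upper line. Above the floor were 3 of these neuron genes (21.4%), 10 astrocyte genes (71.4%), 4 lymphocyte genes (33.3%) and 6 endothelial genes (50.0%). Among neurons the highest was the synapsin gene Syn1 (4.60), while the nuclear marker Rbfox3 (3.36), the neuronal tubulin gene Tubb3 (3.04) and Map2 (2.89) were not above the floor. Among astrocytes the intermediate filament gene Gfap read 4.19, the glutamate transporter gene Slc1a3 3.98 and the water channel gene Aqp4 2.76. Of 13 oligodendrocyte lineage genes 9 (69.2%) were above the floor. Above the upper line were 2, Cnp (8.58) and the myelin basic protein gene Mbp (5.79), while the lineage factors Olig2 (3.67) and Sox10 (4.38) were not.

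Genes of blood cells were mostly below the floor. The monocyte chemokine receptor gene Ccr2 read 2.39 and the lectin gene Chil3 2.36, and no monocyte gene with a value (0 of 5) was above the upper line. Of 12 neutrophil genes 2 were above it, the growth factor receptor gene Csf3r (6.97) and the collagenase gene Mmp8 (6.13), whereas S100a8 (3.60), S100a9 (3.67), the granule enzyme genes Mpo (3.40) and Elane (3.27) and Ly6g (2.52) were not above the floor. The T cell receptor chain gene Cd3e read 4.78 and the B cell gene Cd79a 2.65. Among dendritic cell genes the chemokine receptor gene Ccr7 (6.29) and the transcription factor gene Batf3 (5.51) passed the upper line, and Clec9a (2.47), Xcr1 (3.13) and Cd209a (3.01) were not above the floor.

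Macrophages of the meninges and vessels share many genes with microglia, and 6 of their 12 listed genes were above the upper line (50.0%, against 38.7% of all genes). Siglec1 (9.95), Ms4a7 (9.60), the scavenger receptor gene Stab1 (9.28) and the chemokine gene Pf4 (9.23) were in the top 5%. The folate receptor gene Folr2 (6.85) and the lectin gene Cd209f (6.64) were above the upper line below that. The mannose receptor gene Mrc1 (4.19), the hyaluronan receptor gene Lyve1 (4.04) and F13a1 (4.38) lay between the lines, and the haemoglobin receptor gene Cd163 (3.06), Cbr2 (3.62) and Clec10a (2.69) were not above the floor.

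Of 12 fibroblast genes 10 were above the floor (83.3%, against 61.8% of all genes) and 4 above the upper line (33.3%, against 38.7%). The 4 were the proteoglycan gene Dcn (5.94), the collagen I genes Col1a1 (5.82) and Col1a2 (5.56), and the fibronectin gene Fn1 (5.76). Dcn read 7.31, 8.09 and 7.44 on the WT LPS, Bid-/- control and Bid-/- LPS arrays, and Col1a1 read 6.58, 6.73 and 6.80, so the WT control array was below all 3 others for both genes. Of the 12 fibroblast genes 7 were lowest on the WT control array, where 20.7% of all genes were. The smooth muscle actin gene Acta2 read 6.26, against 7.15, 6.75 and 6.25. The fibroblast list medians on the WT control, WT LPS, Bid-/- control and Bid-/- LPS arrays were 4.92, 5.04, 5.00 and 4.84.

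Apart from genes of macrophages, the single gene of another cell type in the top 5% was Ttr. It encodes the thyroid hormone carrier transthyretin, known from choroid plexus and liver. Its level was 9.53, against 7.85, 9.96 and 9.23 on the WT LPS, Bid-/- control and Bid-/- LPS arrays. The other choroid and ependymal genes did not share this level: Kl (3.52), Foxj1 (3.51) and Enkur (2.37) were not above the floor and Folr1 read 4.39. Whether cells of choroid plexus had a part in the Ttr signal was not tested.

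Xist, the RNA that coats the silenced X chromosome of female cells, had a level of 8.05, and the Y-linked genes Eif2s3y (6.21) and Uty (5.77) were above the upper line on the same array, with Kdm5d at 4.60. Eif2s3y and Uty lay within the range of the genes that set that line (highest 6.43), and Kdm5d lay between the lines. Xist lay above that range.

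The 40 genes with the highest signal began with Fth1, the heavy chain of the iron store ferritin, at 12.59, followed by the lipid carrier Apoe (12.44), beta-actin Actb (12.43) and the elongation factor Eef1a1 (12.41). The chemokine gene Ccl5 was at rank 6 with 12.36 and the acute-phase serum amyloid gene Saa3 at rank 8 with 12.20. Of these 40 genes, 37 were also among the 40 highest on the Bid-/- control array and 31 on each LPS array. Baiap2l1, an actin regulator of epithelia, was at rank 4 with 12.42, but its other probe sets read 10.15 and 3.13, so its level is uncertain. It is 1 of 182 genes whose probe sets differed by more than 2 on this array.

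Lysosomal genes were well represented near the top. Of 39 lysosomal genes 35 were above the upper line (89.7%, against 38.7% of all genes) and 24 (61.5%) in the top 5%. The proteases Ctsd (12.19), Ctsz (12.10), Ctss (12.09), Lgmn (11.89), Ctsb (11.62) and Ctsc (11.45), the activator precursor Psap (12.05), the progranulin gene Grn (11.76) and the membrane proteins Laptm5 (11.48) and Lamp1 (10.93) were among them. Of 17 cathepsin genes 10 were above the upper line, among them also Ctsl (10.33), Ctsa (10.13), Ctsh (9.74), Ctso (7.61) and Ctsf (5.63). The osteoclast cathepsin Ctsk (3.60), the lymphocyte cathepsin Ctsw (3.33) and the neutrophil protease Ctsg (3.21) were not above the floor, and Ctse read 3.92, just above it. Of 24 proton pump genes with Atp6v or Atp6ap symbols, which acidify lysosomes, 12 (50.0%) were in the top 5% and Atp6ap1 was highest at 10.87.

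Other families were high as groups. Of 61 cytosolic ribosomal protein genes 40 (65.6%) were in the top 5%, with Rpl10 at 11.70 and the muscle form Rpl3l lowest at 3.02. Of 40 proteasome subunit genes 20 (50.0%) were there; Psmb11, the thymic subunit, was lowest at 3.57. Of 81 oxidative phosphorylation genes 25 (30.9%) were in the top 5%, led by the ATP synthase gene Atp5b (11.11), against 2 of 77 mitochondrial ribosomal protein genes (2.60%). Actin and motility genes were high throughout: 16 of 21 cytoskeleton genes were in the top 5%, including the actin-binding peptide gene Tmsb4x (11.77), Arpc2 (11.33), the profilin gene Pfn1 (10.99) and the cofilin gene Cfl1 (10.88). The ezrin gene Ezr was lowest of that list at 6.51, while its relative Msn, the moesin gene used by leukocytes, read 10.82.

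**Figure D3:**
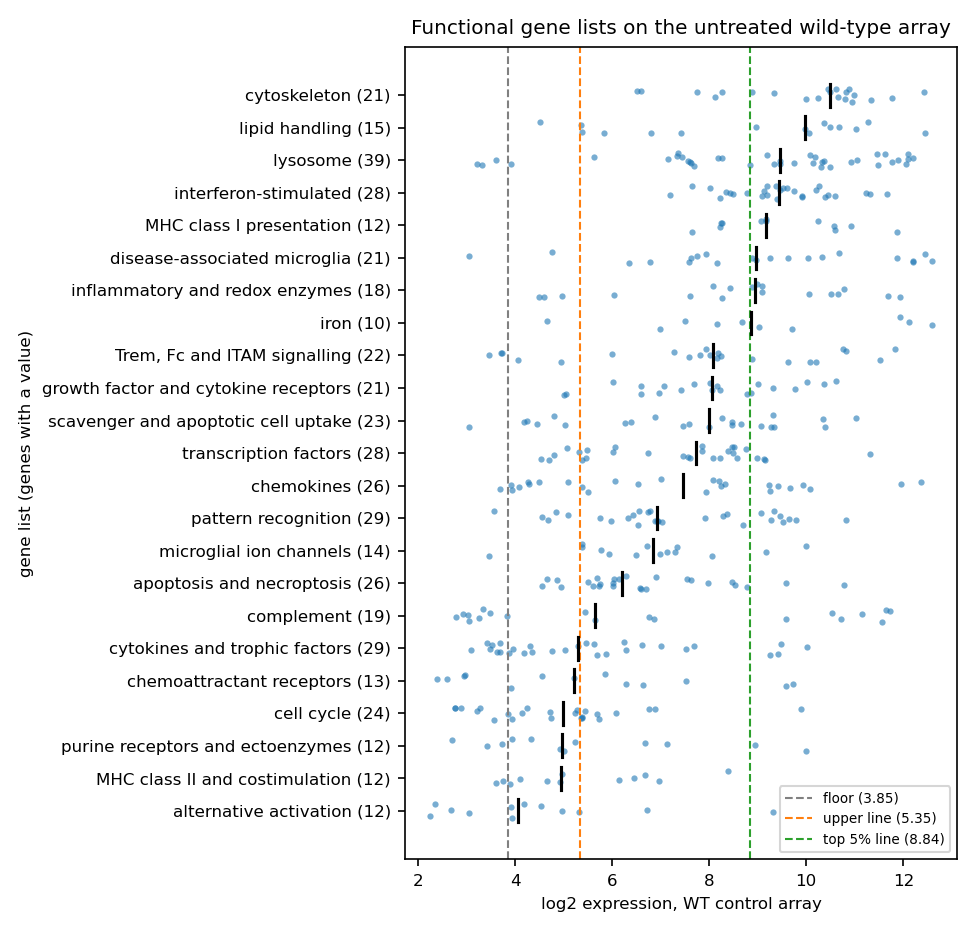
Log2 expression on the WT control array (horizontal axis) of each gene in 23 functional lists (vertical axis, with the number of genes that had a value), ordered by list median (bar), with the floor, upper line and top 5% line dashed. Cytoskeleton, lipid handling, lysosome and interferon-stimulated lists have medians of 10.49, 9.98, 9.47 and 9.43; MHC class II and alternative activation lists have medians of 4.94 and 4.07.

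Phagocytic and sensing receptors covered a wide range. Among Fc receptors the high-affinity Fcgr1 read 10.75, Fcgr4 10.20 and the inhibitory Fcgr2b 8.16; the inhibitory receptor gene Sirpa, which reads CD47 on healthy cells, read 10.83, and the kinase gene Syk 8.89. Trem1, the inflammatory relative of Trem2, had a level of 3.71, against 6.15, 4.14 and 6.28 on the WT LPS, Bid-/- control and Bid-/- LPS arrays. It was below the floor in untreated wild-type cells, and higher on both LPS arrays than on both untreated arrays. Scavenger receptors were led by Cd36 (11.03), Marco (10.39) and Msr1 (10.35); of the Tam receptors for dying cells, Mertk read 8.66, Axl 7.59 and Tyro3 4.45.

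Of 29 pattern recognition genes 24 were above the upper line (82.8%, against 38.7% of all genes) and 8 in the top 5%. Cd14, the LPS co-receptor, read 10.81, the adaptor Myd88 9.79, and the Toll-like receptor genes Tlr2, Tlr1 and Tlr7 9.46, 9.33 and 9.27. Tlr4, the LPS receptor itself, had a level of 7.91 in the WT control cells, against 6.99, 7.84 and 7.03 on the WT LPS, Bid-/- control and Bid-/- LPS arrays, so the untreated arrays were the higher pair. Tlr12 (3.57) was not above the floor, and the inflammasome sensor genes Nlrp3 (6.55) and Aim2 (6.93) lay above the upper line. Of 19 complement genes 11 were above the floor (57.9%, against 61.8% of all genes). The same 11 were above the upper line (57.9%, against 38.7%). The C1q genes, the anaphylatoxin receptor genes C3ar1 (11.57) and C5ar1 (9.58) and properdin Cfp (10.71) were in the top 5%, while 8 of 19, among them C4b (3.35), C1ra (3.25), C1s1 (3.04) and Vsig4 (2.92), were not above the floor and none (0) lay between the lines.

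Of 12 purine receptor and ectoenzyme genes 4 were above the upper line (33.3%, against 38.7% of all genes). These were the ATP-gated channel genes P2rx4 (9.99) and P2rx7 (7.14), the UDP receptor gene P2ry6 (8.95), which triggers phagocytosis, and P2ry13. Between the lines lay 5, among them Entpd1 (5.24) and P2ry2 (4.92). Not above the floor were 3, among them P2rx1 (3.43). Of 21 growth factor and cytokine receptor genes 19 were above the upper line (90.5%, against 38.7% of all genes). The TNF receptor genes Tnfrsf1b and Tnfrsf1a read 10.37 and 9.00 and the interferon gamma receptor gene Ifngr2 10.01. Igf1r (5.05) and Il1rap (5.02) lay between the lines. MHC class I presentation genes were high and class II genes low. All 12 class I presentation genes with a value were above the upper line (B2m 11.88, Tapbp 10.24, Tap1 9.06). No class I heavy chain gene was among the 12. The class II chain genes H2-Ab1, H2-Eb1 and H2-Aa read 4.96, 4.66 and 3.76, and their transactivator Ciita read 3.60, below the floor. Cd74, the invariant chain, read 6.14.

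Lineage transcription factors were all above the floor, where 61.8% of all genes were. Of 28 such factors 23 were above the upper line (82.1%, against 38.7% of all genes). Spi1, which encodes PU.1, the master factor of macrophages, read 9.16, against 9.54, 8.86 and 9.17 on the WT LPS, Bid-/- control and Bid-/- LPS arrays. Its partner Irf8 read 8.58, Mef2a 8.98, Maf 8.47, Fli1 8.39, Cebpb 8.22 and Runx1 7.86. Irf7, the interferon-induced member, was highest of the list at 11.32. The immediate early genes Egr1 (4.80) and Egr2 (4.53) and Klf4 (4.70) lay between the lines.

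Genes that microglia raise around amyloid plaques and in development were high in these untreated cells. Of 21 such genes 19 were above the upper line (90.5%, against 38.7% of all genes) and 12 in the top 5%. Besides Apoe, the lipase gene Lpl read 10.67, the membrane glycoprotein gene Gpnmb 10.04, the galectin gene Lgals3 9.62 and the growth factor gene Igf1 9.26. The cystatin gene Cst7 read 8.16 and the fungal receptor gene Clec7a 6.79. Itgax (3.06) was not above the floor, and Csf1 (4.77) lay between the lines. Lipid-handling genes overlapped with these: the droplet coat gene Plin2 read 11.28 and the cholesterol exporters Abcg1 and Abca1 10.05 and 9.98, while Sqle (4.51), an enzyme of cholesterol synthesis, lay between the lines.

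Inflammatory mediators were present without any LPS, and unevenly so. Ccl5 had a level of 12.36 in the WT control cells, against 12.44, 12.37 and 12.33 on the WT LPS, Bid-/- control and Bid-/- LPS arrays, and Saa3 read 12.20, against 12.33, 12.28 and 12.25. Both lay between 12.20 and 12.44 on all 4 arrays, close to the highest level on this one (12.59), and whether the scale is compressed at that end was not tested. The chemokine gene Ccl3 read 11.95, against 12.43, 11.90 and 12.43, and its neighbour Ccl4 read 9.67, against 12.09, 9.04 and 11.87. Ccl4 was lower on both untreated arrays than on both LPS arrays, as was Ccl3 by a smaller margin.

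Among cytokines Il1b read 10.01, against 11.78, 10.50 and 11.75, and Tnf 9.42, against 12.29, 9.12 and 12.15; both were in the top 5% before treatment. Il6 read 7.01, against 11.48, 7.70 and 11.38, at percentile 80.6 of the untreated array. Il12b (3.70), Il23a (3.69), Il12a (3.43), Csf2 (3.52) and Ifnb1 (3.09) were not above the floor. Ifnb1 read 4.24, 3.12 and 3.83 on the other arrays. Of 29 cytokine and trophic genes 14 were above the upper line (48.3%, against 38.7% of all genes), and of 26 chemokine genes 18 were (69.2%). The trophic genes Bdnf (3.64) and Il34 (3.48) were not above the floor, and Tgfb1, which maintains microglial identity, read 9.48.

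Among enzymes, Hmox1, which degrades haem, read 11.93, the NADPH oxidase genes Cybb and Ncf1 11.68 and 10.77, and Acod1, which makes itaconate, 10.51. Ptgs2, the inducible cyclooxygenase, read 8.99, against 11.89, 10.15 and 12.15. Nos2, the inducible nitric oxide synthase, read 6.04, against 7.25, 7.26 and 8.07, the lowest of the 4 arrays. Of 12 alternative activation genes 8 were above the floor (66.7%, against 61.8% of all genes) and 2 above the upper line (16.7%, against 38.7%). The 2 were Il4ra (9.31), the receptor for the cytokine that induces such genes, and Tgm2 (6.73). Chil3, Retnla (2.26), Clec10a (2.69) and Cd163 were not above the floor, and Arg1 read 4.97.

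**Figure D4:**
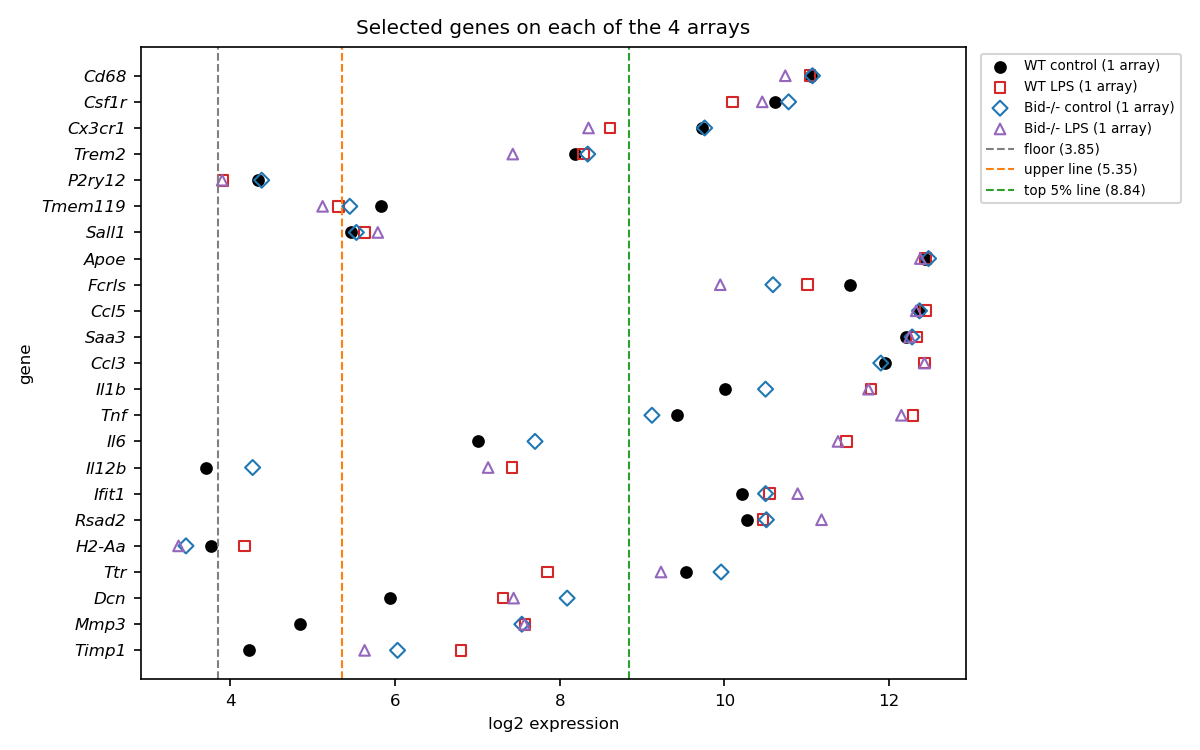
Log2 expression (horizontal axis) of 23 genes (vertical axis) on each of the 4 arrays, 1 symbol per array, with the WT control array filled in black and the floor, upper line and top 5% line dashed. Ccl5 and Saa3 coincide on all 4 arrays above 12, Tnf, Il1b and Il6 are lower on the untreated arrays, and Dcn, Mmp3 and Timp1 are lowest on the WT control array.

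Interferon-stimulated genes had a higher median than the chemokine (7.47), cytokine (5.29) and inflammatory enzyme (8.94) lists. All 28 genes with a value were above the upper line and 20 (71.4%) were in the top 5%, against 4.95% of all genes, with a median of 9.43. The membrane restriction factors Ifitm3 (11.67) and Bst2 (11.24), Irf7, the ubiquitin ligase Trim30a (10.59), and the antiviral genes Ifit3 (10.44), Ifit2 (10.38), Rsad2 (10.27) and Ifit1 (10.21) led the list. The lowest were Mx2 (7.65) and Iigp1 (7.19), both still above the upper line. List medians on the WT LPS, Bid-/- control and Bid-/- LPS arrays were 9.41, 9.64 and 9.72. Ifit1 read 10.55, 10.50 and 10.89 there and Rsad2 10.47, 10.51 and 11.18, so the WT control array was the lowest of the 4 for both. Of the 28 genes 7 were lowest on this array (20.7% of all genes were), and others were lower on the WT LPS array than here. Ifit2 read 10.38, against 9.57, 10.71 and 10.13, Mx1 8.23, against 6.48, 8.68 and 7.86, and Iigp1 7.19, against 5.61, 8.07 and 6.93. The interferon beta gene Ifnb1 was itself below the floor on this array.

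The promoters of these genes are shown because many carry the interferon response element, a sequence that interferon-activated factors bind. Windows from RefSeq (GRCm38.p6) span 250 bases before to 50 after the transcription start and are written 5′ to 3′ on the gene's strand, with matches in capitals. The motif searched, on both strands, was a pair of GAAA blocks with any 2 bases between them. The windows shown were picked because they hold a match.
Ifit1 promoter (chr19:34640639-34640938, plus strand): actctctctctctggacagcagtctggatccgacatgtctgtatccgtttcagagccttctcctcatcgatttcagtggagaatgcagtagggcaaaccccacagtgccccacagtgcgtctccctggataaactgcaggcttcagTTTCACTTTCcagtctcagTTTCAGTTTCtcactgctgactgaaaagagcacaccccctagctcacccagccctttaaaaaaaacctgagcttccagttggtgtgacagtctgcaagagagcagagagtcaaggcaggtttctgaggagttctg
Ifit3 promoter (chr19:34583279-34583578, plus strand): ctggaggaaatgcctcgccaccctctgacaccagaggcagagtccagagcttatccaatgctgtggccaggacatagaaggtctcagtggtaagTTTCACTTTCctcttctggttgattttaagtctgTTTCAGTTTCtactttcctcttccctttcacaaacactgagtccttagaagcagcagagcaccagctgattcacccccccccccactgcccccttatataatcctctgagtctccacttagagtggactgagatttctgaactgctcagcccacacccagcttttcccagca
Rsad2 promoter (chr12:26456403-26456702, minus strand): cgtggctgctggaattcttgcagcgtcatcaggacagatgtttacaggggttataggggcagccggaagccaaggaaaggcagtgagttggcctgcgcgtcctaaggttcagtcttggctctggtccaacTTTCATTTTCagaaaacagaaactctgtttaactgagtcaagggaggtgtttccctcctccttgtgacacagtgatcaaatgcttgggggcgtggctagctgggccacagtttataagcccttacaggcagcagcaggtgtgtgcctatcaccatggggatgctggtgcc
Ifitm3 promoter (chr7:141010695-141010994, minus strand): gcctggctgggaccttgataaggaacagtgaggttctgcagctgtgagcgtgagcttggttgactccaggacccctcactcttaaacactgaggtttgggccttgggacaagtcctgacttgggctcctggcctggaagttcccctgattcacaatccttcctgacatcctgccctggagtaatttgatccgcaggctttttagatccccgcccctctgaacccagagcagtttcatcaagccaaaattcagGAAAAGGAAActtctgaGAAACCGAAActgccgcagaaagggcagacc
In Ifit1 the matches began 104 and 85 bases before the start, in Ifit3 156 and 122 bases before it and in Rsad2 120 bases before it. In Ifitm3 they lay at positions 3 and 20 counted from the start. Of 25 promoter windows of 20 interferon-stimulated genes with a level, 14 held the motif (56.0%), against 3.44% of all 32851 windows. Among genes in the top 5% by level 6.35% of windows held it, and among genes not above the floor 3.58%. A match describes the letters and not a bound site.

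The core of the PU.1 site, GAGGAA on either strand, was searched because Spi1 itself was in the top 5%. It is short and occurred in 28.3% of all windows. It was in 12 of 23 windows of pan-macrophage genes (52.2%) and 13 of 20 windows of Trem, Fc and ITAM signalling genes (65.0%), and in 30.9% of windows of top 5% genes. These lists share Trem2 and Fcgr3, among other genes. Its longer form GAGGAAGT was in 3.2% of all windows, 5.14% of windows of top 5% genes and 3 of 23 windows of pan-macrophage genes. In all, 4 motifs were searched. The windows of Cd68 and Trem2, which both mark these cells and hold a match to the short form, are shown.
Cd68 promoter (chr11:69666121-69666420, minus strand): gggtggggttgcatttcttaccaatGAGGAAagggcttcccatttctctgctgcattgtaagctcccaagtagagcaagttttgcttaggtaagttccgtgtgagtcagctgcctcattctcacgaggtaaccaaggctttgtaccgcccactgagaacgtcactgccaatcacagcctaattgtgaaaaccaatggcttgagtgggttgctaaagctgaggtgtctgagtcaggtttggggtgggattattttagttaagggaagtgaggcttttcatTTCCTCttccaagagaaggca
Trem2 promoter (chr17:48346151-48346450, plus strand): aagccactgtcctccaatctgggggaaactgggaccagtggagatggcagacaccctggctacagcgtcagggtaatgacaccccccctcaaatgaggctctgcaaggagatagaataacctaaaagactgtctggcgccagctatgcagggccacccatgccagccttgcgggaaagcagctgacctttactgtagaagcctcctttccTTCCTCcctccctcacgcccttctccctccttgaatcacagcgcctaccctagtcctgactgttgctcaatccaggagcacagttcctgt
In Cd68 matches lay 225 bases before the start and at position 30 after it, in Trem2 40 bases before it. Of 12 windows of neuron genes 4 held the same letters (33.3%).

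The lysosomal E-box TCACGTGA, which equals its own reverse complement, is the core of the element read by the lysosomal regulator Tfeb. It was in 0.974% of all windows, 2.92% of windows of top 5% genes, 0.506% of windows of genes not above the floor and 3 of 37 windows of lysosomal genes (8.11%), those of Ctsa, Ctsd and Mcoln1. Ctsd, the highest of the lysosomal list, has it 99 bases before the start.
Ctsd promoter (chr7:142387778-142388077, minus strand): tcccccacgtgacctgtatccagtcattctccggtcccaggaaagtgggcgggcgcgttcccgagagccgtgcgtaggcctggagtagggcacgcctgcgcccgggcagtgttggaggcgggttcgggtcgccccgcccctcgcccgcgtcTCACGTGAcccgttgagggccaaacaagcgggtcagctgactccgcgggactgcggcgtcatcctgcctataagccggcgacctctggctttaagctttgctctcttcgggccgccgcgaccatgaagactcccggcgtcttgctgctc

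**Figure D5:**
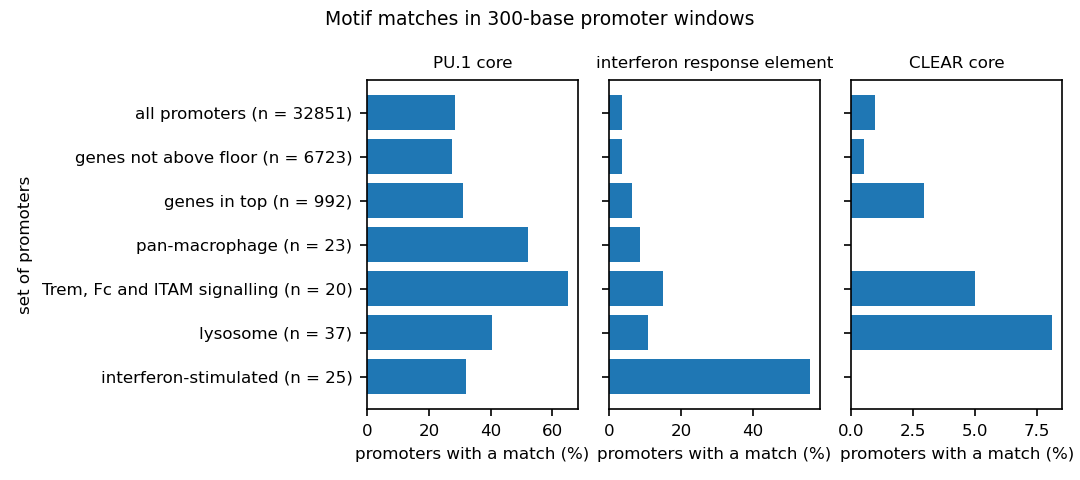
Percentage of promoter windows of 300 bases (horizontal axis, each panel with its own scale) that hold the PU.1 core, the interferon response element or the CLEAR core (the lysosomal E-box), for all windows and for windows of genes grouped by level on the WT control array or by list (vertical axis, with the number of windows). The interferon-stimulated bar reaches 56.0% in the middle panel, against 3.44% for all windows.

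Most genes of cell death were above the upper line. Bid, the BH3-only protein that links death receptors to mitochondria, read 5.69, just above the upper line, against 5.02, 5.53 and 5.97 on the WT LPS, Bid-/- control and Bid-/- LPS arrays. The position of its probes relative to the deletion is not known here, so the level on the Bid-/- arrays does not check the label. All 26 apoptosis and necroptosis genes with a value were above the floor, where 61.8% of all genes were. Of them 22 were above the upper line (84.6%, against 38.7% of all genes). Mcl1, a survival protein, read 10.77, the cytochrome c gene Cycs 9.59, the caspase-8 inhibitor Cflar 8.78, Bcl2l1 8.54, Casp8 8.47 and the necroptosis effector Mlkl 7.97. Bcl2 (4.86), Bok (4.94), Bbc3 (4.67) and Bik (4.56) lay between the lines.

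Genes of the cell cycle passed the upper line about as often as all genes did, 10 of 24 (41.7%, against 38.7%). Pcna, the replication clamp, read 9.90 and was the only 1 of 24 cell cycle genes in the top 5%. The replication helicase genes Mcm6 and Mcm3 read 6.89 and 6.08 and Cdk1 5.73. Mki67 (3.56), Ccna2 (3.22), Cenpf (3.29), Bub1 (2.76) and Kif11 (2.89) were not above the floor, and the mitotic kinase gene Aurkb (5.39) was just above the upper line.

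MicroRNA genes mostly did not pass the upper line, and the array reads their hairpin or host transcript rather than the mature strand. Beside 38.7% of all genes, 39 of 302 such genes were above the upper line. Those known from leukocytes were among them: Mir155, known to rise in inflammation, read 7.27, against 9.23, 7.50 and 9.67 on the WT LPS, Bid-/- control and Bid-/- LPS arrays, Mir146 6.90, against 7.19, 6.76 and 7.69, and Mir142 6.04, against 6.00, 5.95 and 6.63. The neuronal Mir124a-2 (3.53), Mir124a-3 (3.07), Mir9-1 (3.64), Mir9-3 (3.11) and Mir128-1 (3.69) were not above the floor, and Mir128-2 (3.86) was at its edge. The mature strands of the leukocyte set are shown with the seed, bases 2 to 8, in capitals; no seed is shared among them.
mmu-miR-155-5p: uUAAUGCUaauugugauaggggu
mmu-miR-146a-5p: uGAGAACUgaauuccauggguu
mmu-miR-142a-3p: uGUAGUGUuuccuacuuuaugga

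Some whole families did not pass the upper line. Of 252 groups of at least 10 genes that share a symbol prefix, 31 had no member above the upper line. Beyond the receptor and keratin families that set the lines, these held 28 claudin genes (Cldn, tight junctions of epithelia; highest 4.78), 23 cadherin genes (Cdh; 4.70), 22 kallikrein genes (Klk; 4.45), 14 serotonin receptor genes (Htr; 4.18), 11 voltage-gated sodium channel genes (Scn; 4.66) and 10 genes each of the Hoxa (4.91) and Hoxd (4.24) clusters. At the other end, 7 of 11 Psmb genes, 21 of 36 Rpl genes, 16 of 31 Rps genes and 3 of 10 Tlr genes were in the top 5%.

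The level of a gene on this array was close to that on the Bid-/- control array and less close to the LPS arrays. Among the 7707 genes above the upper line, the difference of the Bid-/- control array from the WT control array had a standard deviation of 0.20, and 95% of genes lay between -0.35 and 0.43. For the WT LPS array the standard deviation was 0.51, with 95% of genes between -1.01 and 0.96. A level nearer to a line than the spread of the Bid-/- control array could fall on its other side on another untreated array. Genotype, culture and array are all part of that spread. For the WT LPS array the parts are treatment, culture and array. Within each spread the parts cannot be told apart.

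In 8 genes the place in the ranking on the WT control array lay at least 15 percentile points outside the range of the other 3 arrays. Rgs18, a regulator of G protein signalling, was higher here, at 3.75 against 2.78, 2.96 and 2.84 on the WT LPS, Bid-/- control and Bid-/- LPS arrays, all below the floor. The other 7 were lower here. Mmp3, the stromelysin gene, read 4.85, against 7.58, 7.54 and 7.57. Timp1, a metalloproteinase inhibitor gene, read 4.22, against 6.80, 6.03 and 5.63, and the fibroblast growth factor gene Fgf7 3.69, against 4.97, 4.81 and 4.88. Depp1 (3.99, against 5.42, 5.51 and 6.83), Serpinb2 (5.84, against 9.75, 7.39 and 10.00), Dcn and Vopp1 (3.51, against 4.29, 4.20 and 4.52) complete the set. The fibroblast genes Dcn and Col1a1 were lowest on this array as well, and the part of stromal cells in the levels of Mmp3, Timp1 and Fgf7 was not tested.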

How the data were processed

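The authors deposited 1 table of log2 expression for 28944 probe sets on 4 arrays. Per the submitters' processing notes the tools were Partek 6.2, the Affymetrix Expression Console and RMA, with their roles not stated; the log base is read from the values' range and 2 decimals. Where RMA was applied, its quantile step removes any change that affects every gene alike. Scanner values and detection calls were not used here. Probe sets with 1 symbol (21789) were used; 1621 with several and 5534 with none were left out, and 517 of these 7155 exceeded the top 5% line. Entrez identifiers of 21698 matched the RefSeq table of GRCm38.p6, used for names. For 999 genes with several probe sets, the probe set of highest average level was taken, giving 19938 genes.

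The floor is the 95th percentile of chemosensory receptor genes on the array and the upper line that of keratin, crystallin and defensin genes. Counts of list members were read beside the same count over all genes, without tests, since each level comes from 1 array without replicates; a model over the 4 arrays, which could test treatment or genotype only by assuming that they add, was not fitted. The number of arrays limits the precision. Of 696 genes in 43 lists, 632 had a value. The lists, members and lines were chosen with earlier results of these data known. The named genes are the 4 rule markers, the 40 highest, list members chosen by level or defining role, prefix families of at least 10 genes, and genes at least 15 percentile points away from the other arrays. The use of the upper line beside the floor, the motifs, the printed promoters, the microRNA genes and the genes in the plot of 4 arrays were chosen after values were seen. Promoter and miRNA sequences are RefSeq's. Python 3.11.15, pandas 2.3.3 and numpy 2.4.6 were used. The floor rule was run on simulated data in which background and reference genes had the same distribution. That run checks the calculation and cannot show whether the floor suits the real array. Alternatives were another floor, another probe set per gene, centring, and the control array labelled Bid-/-.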

Additional observations from a re-analysis of the deposited data

How the results depend on the processing

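The count of all genes above the floor, 12331, fell to 7707 with the keratin, crystallin and defensin genes as reference. The count for other cell types, here with macrophages of the meninges and vessels included, was 75 of 146. It fell to 36 with the 99th percentile of chemosensory genes and to 19 with the keratin reference. A higher floor gives these lower counts by construction. The counts of homeostatic (15 to 17 of 20), pan-macrophage (26 of 26) and all list genes (371 to 510 of 632) stayed within 1.5 times the main count under the 6 alternatives. Of 41 other lists, 18 moved by more with the keratin reference, 11 with the 99th percentile, 7 with the median of all probe sets as floor, 1 with the lowest probe set, 1 with centring and 2 on the control array labelled Bid-/-. No paired analysis was possible because the values reported are levels and counts on 1 array and come from no test; no replicate could be left out. Signal near background limits what can be said of genes between the lines. Levels of different probe sets are not calibrated to each other.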
